A study of Mus musculus with 10 samples.

Results

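Cholesterol and fatty acid synthesis was examined in whole lung through 36 genes, 18 of the sterol arm, 13 of the fatty acid arm and 5 that encode the sterol regulatory element-binding proteins (SREBPs) and their regulators. A member was measured where the array annotation gave a probe set (a group of short probes for one transcript) its symbol alone, and where several probe sets did, the one with the highest mean over all arrays stood for the gene. By this rule 34 of the 36 were measured, among 12393 genes in all, and Acat2 and Insig1 had no such probe set. The lungs came from male C57BL/6 mice, an inbred strain, aged 6 to 8 weeks. Of these 5 were kept in normoxia and 5 were exposed to intermittent hypoxia, called chronic in the series title, in which inspired oxygen falls and recovers in cycles, with 1 Affymetrix Mouse Genome 430A 2.0 array for each animal. The 2 groups share strain, sex and age, and the labels name no other treatment. Neither the oxygen levels nor the length of exposure is stated in the labels. The question was which of these genes differ in the lung after the exposure.

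Cholesterol is built from acetyl-CoA through mevalonate, isoprenoids and squalene, and fatty acids are built from the same acetyl-CoA by fatty acid synthase and then lengthened by elongases and desaturated by desaturases. SREBP-2, encoded by Srebf2, mainly activates the sterol genes, and SREBP-1, encoded by Srebf1, the fatty acid genes. Both are held in the endoplasmic reticulum by the Insig proteins when sterol is plentiful, and are carried to the Golgi by Scap when it is not. In the lung, alveolar type 2 cells use this machinery to make surfactant lipids.

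The promoters of the members that passed the test are shown first, because the genes of this pathway are known to share control elements near their starts. The RefSeq promoter table (build GRCm38.p6) gave 29 of the 36 members, and promoters of Fdps, Fdft1, Sqle, Stard4, Scd1, Scd2 and Fads1 were not analysed here. For every member that passed and had a single start in the table, the 200 bases before the start are printed 5′ to 3′ on the gene's strand. Capitals mark CCAAT boxes in either orientation, and in Hmgcs1 also the core of the sterol regulatory element.
Hmgcs1 (chr13:119690151-119690350, plus strand): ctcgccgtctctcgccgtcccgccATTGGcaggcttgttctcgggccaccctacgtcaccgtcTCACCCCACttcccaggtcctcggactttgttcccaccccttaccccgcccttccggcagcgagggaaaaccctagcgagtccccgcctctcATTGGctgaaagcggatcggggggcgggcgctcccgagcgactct
Idi1 (chr13:8885406-8885605, plus strand): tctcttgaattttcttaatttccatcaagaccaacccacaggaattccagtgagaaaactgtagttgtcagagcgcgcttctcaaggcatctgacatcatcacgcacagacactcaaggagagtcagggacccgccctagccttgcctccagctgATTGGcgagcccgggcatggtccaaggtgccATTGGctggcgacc
Cyp51 (chr5:4104698-4104897, minus strand): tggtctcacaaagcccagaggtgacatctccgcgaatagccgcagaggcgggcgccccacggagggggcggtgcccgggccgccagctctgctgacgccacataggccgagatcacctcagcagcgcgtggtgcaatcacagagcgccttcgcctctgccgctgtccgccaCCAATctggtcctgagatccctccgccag
Msmo1 (chr8:64733579-64733778, minus strand): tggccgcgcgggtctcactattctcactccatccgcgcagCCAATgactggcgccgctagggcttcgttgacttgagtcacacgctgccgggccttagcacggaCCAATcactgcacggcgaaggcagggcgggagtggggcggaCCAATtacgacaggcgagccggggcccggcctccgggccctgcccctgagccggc
Srebf2 (chr15:82147069-82147268, plus strand): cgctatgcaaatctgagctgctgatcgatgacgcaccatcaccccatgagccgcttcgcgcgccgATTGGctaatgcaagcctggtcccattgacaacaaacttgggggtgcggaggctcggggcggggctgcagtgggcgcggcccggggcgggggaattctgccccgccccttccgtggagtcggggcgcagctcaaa
Elovl6 (chr3:129532186-129532385, plus strand): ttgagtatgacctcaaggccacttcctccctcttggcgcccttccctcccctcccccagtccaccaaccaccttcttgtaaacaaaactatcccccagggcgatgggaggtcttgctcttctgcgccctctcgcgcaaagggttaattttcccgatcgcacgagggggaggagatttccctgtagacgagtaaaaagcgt
Fads2 (chr19:10101504-10101703, minus strand): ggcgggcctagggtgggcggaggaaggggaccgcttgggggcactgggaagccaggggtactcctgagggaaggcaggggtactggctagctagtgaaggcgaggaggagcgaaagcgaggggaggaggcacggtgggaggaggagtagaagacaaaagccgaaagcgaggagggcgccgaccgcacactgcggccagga
Fads3 (chr19:10041348-10041547, plus strand): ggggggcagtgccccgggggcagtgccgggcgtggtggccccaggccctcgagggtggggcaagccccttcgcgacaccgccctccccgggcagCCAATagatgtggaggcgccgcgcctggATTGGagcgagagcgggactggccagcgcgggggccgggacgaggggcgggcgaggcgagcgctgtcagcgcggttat

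Short motifs were searched on both strands of windows that run from 250 bases before the start to 50 after it. The 29 members with an entry gave 39 windows, among them those of the unmeasured Acat2 and Insig1. A gene with several starts gave a window for each, and such windows can overlap and hold the same site. The core sterol element TCACNCCAC was found in 1 of 17 sterol arm windows, that of Hmgcs1 at position -137 from the start. It was found in 0 of 12 windows of the fatty acid arm, in 0 of 10 of the regulators and in 1.24% of all windows. The CCAAT box (CCAAT), which is bound by the factor NF-Y, was present in 13 of 17 sterol arm windows (76.5%), in 7 of 12 of the fatty acid arm (58.3%) and in 5 of 10 of the regulators, against 37.4% of all windows. The GC box GGGCGG was present in 14 of 17, 7 of 12 and 8 of 10, against 35.7% of all windows, and the E-box CACGTG in 3 of 17, 1 of 12 and 3 of 10, against 7.15%. The regulator windows with an E-box were 2 overlapping ones of Scap, which hold the same site, and 1 of Insig1. The stretch of Msmo1 printed above holds 3 CCAAT boxes, those of Elovl6 and Fads2 none. These matches describe letters in the windows and were not tested as binding sites.

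Array medians lay between 7.69 and 7.73 on the log2 scale and no 2 arrays held identical values. The spread over probe sets was narrower on normoxia arrays 2, 3 and 4 (SD 1.89 to 1.93) than on the other 7 arrays (1.99 to 2.05). Normoxia arrays 1 and 5 correlated better with the hypoxia arrays (mean r 0.994 and 0.993) than with their own group (0.993 and 0.991). Of the 22626 probe sets 11.9% passed limma at an adjusted p below 0.05. With all arrays 2699 probe sets passed. The number was 1003 to 1714 with any one of normoxia arrays 2 to 4 or hypoxia arrays 1 to 4 left out, 4800 without normoxia array 5, and 16 without normoxia arrays 2, 3 and 4 together. Markers of alveolar type 2 cells, such as the surfactant genes, were bright on every array, with a mean level over 11 genes of 12.37 to 12.72 in normoxia and 12.55 to 12.81 in intermittent hypoxia.

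In the sterol arm 7 of 17 measured genes were higher after intermittent hypoxia. These were Hmgcs1, Idi1, Fdps, Sqle, Cyp51, Msmo1 and Stard4, which rose by 0.38 to 0.68 on the log2 scale (1.31-fold to 1.60-fold). One gene, Pmvk, fell, and 9 did not pass. Over all genes 8.93% were called higher and 3.60% lower. The difference was above 0 in 15 of the 17, with a median of 0.19 against 0.01 over all genes. The groups did not overlap in 5 genes with hypoxia above and in 1 with hypoxia below, where 5.76% and 2.85% of all genes were so separated. Brighter probe sets as a whole leaned upward. A level filter that dropped the dimmer ones kept 11313 probe sets, with a median difference of 0.10. Of these 1938 were called higher and 492 lower. The 14 sterol arm genes kept by this filter had a median of 0.28. In whole tissue, more cells of a type and more RNA per cell cannot be told apart.

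Among the early steps, Hmgcs1 encodes the synthase that makes HMG-CoA, the substrate for mevalonate. Its log2 levels on normoxia arrays 1 to 5 were 11.01, 10.97, 10.66, 10.54 and 11.12, and on hypoxia arrays 1 to 5 they were 11.15, 11.35, 11.36, 11.20 and 11.24. Every hypoxia array stood above every normoxia array. The rise was 0.40 (SE 0.10, limma adjusted p = 0.0291), and all 4 probe sets of the gene were called higher, by 0.40 to 0.60. The main probe set did not pass when array 3 or 4 of normoxia, or array 2 or 3 of intermittent hypoxia, was left out (adjusted p up to 0.0765). The mevalonate kinase gene Mvk differed by 0.04 (95% interval -0.13 to 0.22) and the decarboxylase gene Mvd by 0.08 (-0.09 to 0.25), and neither passed.

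Pmvk, which encodes phosphomevalonate kinase between these 2 enzymes, moved the other way. Its levels were 8.66, 8.63, 8.70, 8.43 and 8.67 in normoxia and 8.00, 8.41, 8.41, 7.82 and 7.89 in intermittent hypoxia. Hypoxia arrays 1, 4 and 5 lay well below all normoxia arrays, and hypoxia arrays 2 and 3 just below the lowest of them. Pmvk fell by 0.51 (SE 0.12, limma adjusted p = 0.0184), to 0.701 of its normoxia level, on its only probe set.

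The isoprenoid genes downstream rose. Idi1 encodes the isomerase that interconverts the isoprenoid building blocks, and Fdps the synthase that joins them into farnesyl diphosphate. Idi1 had normoxia levels of 9.56, 9.41, 9.37, 9.30 and 9.66 and hypoxia levels of 9.65, 9.91, 10.04, 9.80 and 9.96, so that hypoxia array 1 and normoxia array 5 met. It rose by 0.41 (SE 0.09, limma adjusted p = 0.0149), and its second probe set by 0.44. Fdps had levels of 8.63, 8.52, 8.20, 8.54 and 8.69 and 8.74, 8.92, 8.98, 8.80 and 9.06 and the groups were apart, closely at normoxia array 5 and hypoxia array 1. Fdps rose by 0.38 (SE 0.10, limma adjusted p = 0.0241). Leaving out array 2 or 4 of normoxia, or array 2 or 3 of intermittent hypoxia, ended this call (up to 0.0583). Its dimmer probe set differed by -0.33 without passing, and the mean of both by 0.03 (limma adjusted p = 0.826).

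At the entry to the sterol branch, Fdft1 (squalene synthase) differed by 0.11 (95% interval -0.05 to 0.27) and did not pass, and 2 of its 4 probe sets had a negative difference. Sqle, the squalene epoxidase that often limits the branch, was lower on each normoxia array, at 9.34, 9.19, 9.22, 9.11 and 9.43, than on any hypoxia array, at 9.81, 9.77, 9.75, 9.68 and 9.80. The hypoxia arrays were close together. Sqle rose by 0.51 (SE 0.07, limma adjusted p = 0.00298), the smallest adjusted p of the sterol arm. The cyclase gene Lss, which closes the sterol ring in the next step, differed by -0.02 (-0.18 to 0.15), with a sign that changed under 5 alternatives.

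Cyp51 and Msmo1 are among the enzymes that demethylate the new sterol ring. Msmo1 showed the largest rise of the sterol arm. Its levels were 8.29, 8.06, 8.25, 7.92 and 8.15 in normoxia and 8.93, 8.95, 9.09, 8.61 and 8.48 in intermittent hypoxia, and the groups did not overlap. The hypoxia arrays fell into a higher 3 and a lower 2, arrays 4 and 5. Msmo1 rose by 0.68 (SE 0.11, limma adjusted p = 0.00669). Cyp51 stood at 7.21, 7.44, 7.47, 7.40 and 7.67 and at 7.65, 7.82, 8.04, 8.08 and 7.86, overlapping at normoxia array 5, and rose by 0.45 (SE 0.10, limma adjusted p = 0.0148). Its 2 dimmer probe sets differed by 0.15 and -0.04 and did not pass, and neither did the mean of the 3, at 0.19 (adjusted p = 0.0782).

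None of the 5 later enzymes passed limma in the main fit. SAM with its planned estimate of false calls called all 5 (false discovery rates of 0.0230 to 0.0481). That estimate called 7199 of all 22626 probe sets. The stricter SAM estimate, which called 1801 probe sets, called none of the 5. Nsdhl, Hsd17b7 and Ebp differed by 0.15, 0.18 and 0.17, with limma adjusted p values of 0.140, 0.122 and 0.159, and Dhcr7, the last reductase of the pathway, by 0.19 (adjusted p = 0.109). Sc5d, the desaturase before it, had a difference of 0.43 (SE 0.14) at an adjusted p of 0.0590. Its normoxia levels were 8.63, 8.03, 8.05, 8.39 and 8.80 and its hypoxia levels 8.87, 8.60, 8.81, 8.86 and 8.91. Normoxia arrays 1 and 5 overlapped the hypoxia arrays and arrays 2 and 3 lay far below, and Sc5d passed without normoxia array 1 or 5. Sc5d also passed limma with a replicate block (adjusted p = 0.0354), with the level filter (0.0377) and with arrayWeights. Ebp passed without normoxia array 5.

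Stard4, which carries sterol between membranes and is a known SREBP-2 target, was apart in the groups. Its levels were 9.44, 9.29, 9.08, 9.09 and 9.23 in normoxia and 9.87, 9.64, 9.60 and 9.64 on hypoxia arrays 1, 3, 4 and 5, with the highest value, 10, on hypoxia array 2. Stard4 rose by 0.52 (SE 0.09, limma adjusted p = 0.00830), and its other probe set rose by 0.31.

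**Figure D1:**
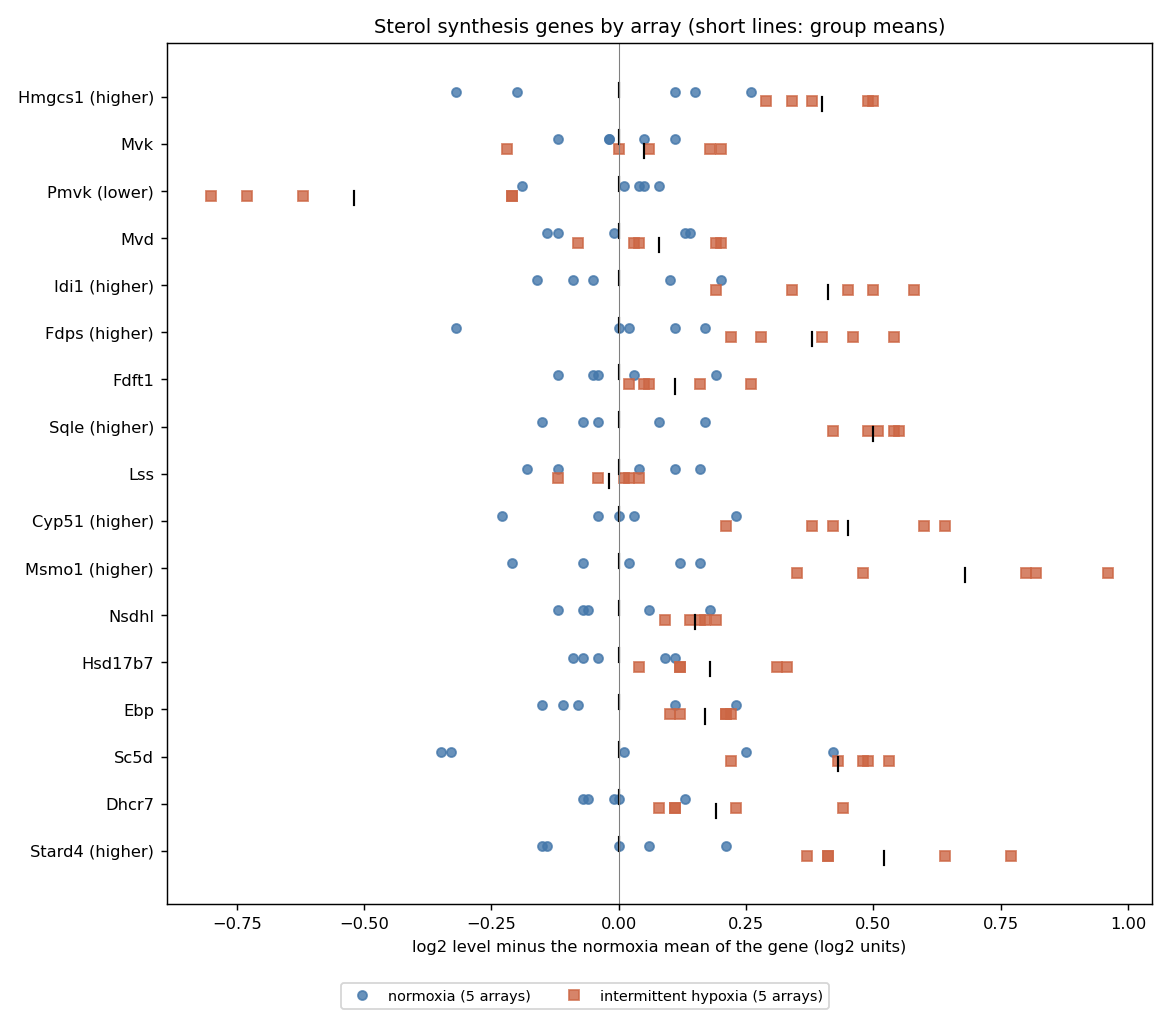
Log2 level of each measured sterol arm gene on each array, as the difference from the gene's normoxia mean, with circles for the 5 normoxia arrays, squares for the 5 intermittent hypoxia arrays and short lines for group means. Squares lie to the right of all circles for Hmgcs1, Fdps, Sqle, Msmo1 and Stard4, and to the left for Pmvk.

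Of the SREBP regulators 3 of 4 measured genes rose, Srebf2, Srebf1 and Insig2, and none fell, where 8.93% and 3.60% of all genes did. The median difference of the 4 was 0.26, against 0.01 over all genes. All 4 were kept by the level filter, under which the median over the kept probe sets was 0.10. With quantile normalization the median of the 4 was 0.14, 3 of them were above 0 and 1 passed. Srebf2 encodes the main activator of the sterol genes. Its levels were 9.37, 9.32, 9.48, 9.41 and 9.55 in normoxia and 9.70, 9.95, 9.90, 9.84 and 9.83 in intermittent hypoxia, without overlap. Srebf2 rose by 0.42 (SE 0.07, limma adjusted p = 0.00562) and kept its call without any single array, while its second probe set differed by 0.26 and did not pass.

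Srebf1 and Insig2 rose less. Srebf1, which encodes SREBP-1, had levels of 9.98, 9.89, 9.76, 9.76 and 10.14 and 10.12, 10.14, 10.18, 10.15 and 10.28, and normoxia array 5 lay among the hypoxia arrays. It rose by 0.27 (SE 0.08, limma adjusted p = 0.0438), and did not pass when any 1 of 8 arrays was left out, the exceptions being normoxia arrays 1 and 5 (up to 0.114). Insig2, an anchor that keeps SREBPs in the endoplasmic reticulum, had levels of 9.17, 9.03, 9.07, 9.13 and 9.16 and 9.32, 9.45, 9.41, 9.31 and 9.30, without overlap. The rise of Insig2 was 0.25 (SE 0.06, limma adjusted p = 0.0225). It did not pass with array 2, 3 or 4 of normoxia, or array 2 or 3 of intermittent hypoxia, left out (up to 0.0577), and its 2 other probe sets, at 0.19 and -0.03, did not pass, nor did the mean of the 3, at 0.14 (adjusted p = 0.153). With any 1 of these 5 arrays left out, 1 regulator passed, Srebf2. Scap, the escort protein, differed by 0.10 (95% interval -0.07 to 0.27) and did not pass.

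In the fatty acid arm 5 of 13 genes rose, the elongase gene Elovl1 and the desaturase genes Fads3, Scd1, Fads1 and Fads2. One fell, the elongase gene Elovl6, and 7 did not pass. The median was 0.26 and 10 differences were above 0, against 0.11 and 7 with quantile normalization of the arrays. The groups were apart in 4 genes with hypoxia above and 1 with hypoxia below, where 5.76% and 2.85% of all genes were so separated. Over all genes 8.93% were called higher and 3.60% lower, and the median was 0.01. The level filter kept 12 genes of this arm, with a median of 0.27 against 0.10 over the kept probe sets. Without normoxia array 4, 3 of the 13 passed.

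The main probe sets of the genes that supply and build palmitate did not pass limma in the main fit. SAM with its planned estimate, which called 7199 of all 22626 probe sets, called Acly and Fasn (false discovery rates of 0.0283 and 0.0343). With the stricter SAM estimate neither passed (0.111 and 0.126). Both passed limma with arrayWeights (adjusted p of 0.0446 and 0.0435), which called 4132 probe sets. Fasn, the synthase itself, had levels of 10.53, 10.23, 10.11, 10.31 and 10.86 in normoxia and 10.79, 11.08, 10.84, 10.62 and 10.56 in intermittent hypoxia. Normoxia array 5 was higher than every hypoxia array but array 2. The difference was 0.37 (SE 0.14, limma adjusted p = 0.0856), and Fasn passed without normoxia array 5. Acly, which cleaves citrate into acetyl-CoA, differed by 0.26 (SE 0.09, adjusted p = 0.0833) and also passed without that array. Of its 5 probe sets 2 others passed, higher by 0.47 and 0.60. The carboxylase gene Acaca differed by -0.07 (95% interval -0.25 to 0.11) on a dim probe set, the acetate-activating Acss2 by 0.03 (-0.17 to 0.24) and the NADPH-supplying malic enzyme gene Me1 by -0.02 (-0.18 to 0.15).

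The elongases went apart. Elovl1 extends saturated and monounsaturated chains to very long ones. Its levels were 11.94, 11.73, 11.22, 11.16 and 11.55 in normoxia and 12.51, 12.65, 12.42, 12.24 and 12.25 in intermittent hypoxia, and the groups were well apart. Elovl1 rose by 0.89 (SE 0.14, limma adjusted p = 0.00521), or 1.86-fold, the largest difference of the 34 genes. Its 3 probe sets gave 0.89, 0.90 and 0.99 and all passed. The 2 brighter ones carry a suffix by which the manufacturer marks probes that may also bind other transcripts, as do the main probe sets of Acly and Elovl5.

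Elovl6 lengthens palmitate to stearate. It had levels of 8.06, 8.11, 8.32, 8.64 and 8.70 in normoxia and 8.02, 7.94, 7.92, 7.72 and 8.01 in intermittent hypoxia. The hypoxia arrays were uniformly low, and normoxia arrays 1 and 2 came close to them. Elovl6 fell by 0.45 (SE 0.12, limma adjusted p = 0.0354), and its other probe set fell by 0.32. Elovl6 did not pass with array 3 or 4 of normoxia, or any of arrays 1 to 4 of intermittent hypoxia, left out (up to 0.0923). Elovl5, an elongase of polyunsaturated chains, differed by 0.01 (95% interval -0.15 to 0.16).

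Of 5 desaturase genes 4 rose. Scd1, which places the first double bond in stearate and palmitate, had levels of 13.05, 12.80, 12.96, 13.31 and 13.74 and 13.59, 13.76, 13.61, 13.87 and 13.70, so that normoxia array 5 lay among the hypoxia arrays. It rose by 0.53 (SE 0.14, limma adjusted p = 0.0334), with 0.81 on its second probe set. Scd1 did not pass when any 1 of 7 arrays was left out, numbers 2 to 4 of normoxia and 1 to 4 of intermittent hypoxia (up to 0.0869). Its paralogue Scd2 differed by 0.15 (SE 0.08, limma adjusted p = 0.240) and by -0.00 with quantile normalization, and 1 of its 3 probe sets passed, at 0.49. The 2 genes lie near each other on chromosome 19 and are similar, so probes may not keep them wholly apart.

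Fads1, Fads2 and Fads3, which encode the front-end desaturases and a related protein, are direct neighbours on chromosome 19, and all 3 rose without overlap of the groups. Fads1 stood at 10.15, 9.92, 9.82, 10.08 and 10.29 in normoxia and at 10.37, 10.53, 10.33, 10.39 and 10.53 in intermittent hypoxia. Fads2 stood at 8.03, 7.90, 7.98, 7.84 and 8.06 and at 8.29, 8.19, 8.23, 8.27 and 8.17. Fads3 stood at 9.98, 9.76, 9.44, 9.57 and 9.80 and at 10.32, 10.36, 10.47, 10.11 and 10.11. In Fads1 the groups nearly touched at normoxia array 5 and hypoxia array 3. The rises were 0.38 (SE 0.09), 0.27 (SE 0.06) and 0.56 (SE 0.10), with limma adjusted p values of 0.0187, 0.0190 and 0.00915. Fads2 lost its call without normoxia array 4 (0.0555), and its other probe set rose by 0.42, as that of Fads3 did by 0.67.

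**Figure D2:**
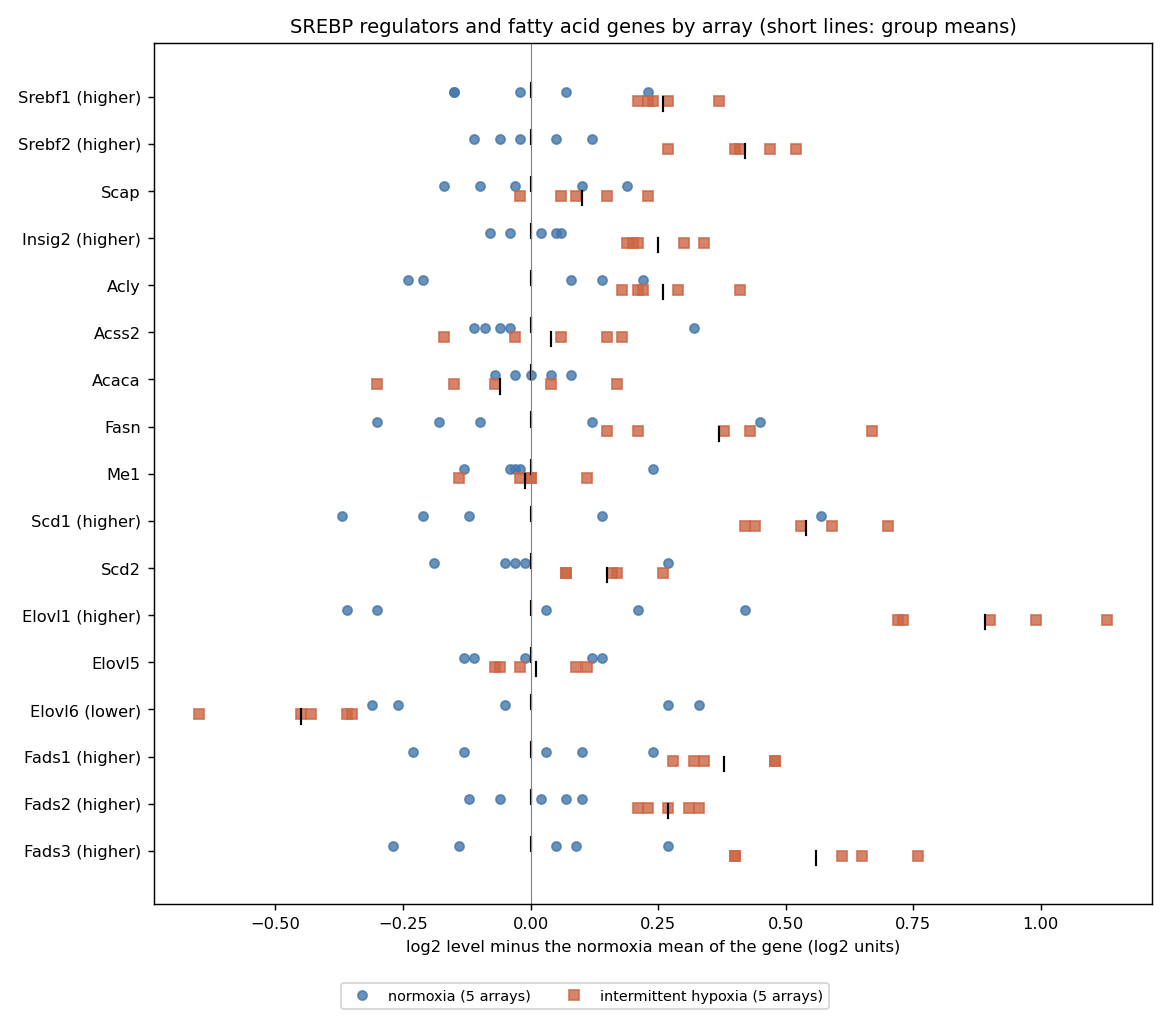
Log2 level of each measured SREBP regulator and fatty acid gene on each array, as the difference from the gene's normoxia mean, with circles for the 5 normoxia arrays, squares for the 5 intermittent hypoxia arrays and short lines for group means. Squares of Elovl1, Fads1, Fads2, Fads3, Srebf2 and Insig2 lie to the right of all circles, those of Elovl6 to the left, and the rightmost circle of Fasn and Scd1 is normoxia array 5.

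Seen by array, the mean of each arm after centring every gene was compared between the groups. The sterol score was -0.08, -0.15, -0.16, -0.20 and -0.03 on normoxia arrays 1 to 5 and 0.08, 0.14, 0.17, 0.08 and 0.14 on hypoxia arrays 1 to 5, and the groups were apart. The fatty acid score was -0.05, -0.17, -0.27, -0.17 and 0.10, and then 0.14, 0.20, 0.11, 0.03 and 0.08. In that arm normoxia array 5 lay above hypoxia arrays 4 and 5. The regulator score was -0.21 to -0.00 on normoxia arrays and 0.08 to 0.20 on hypoxia arrays.

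The 3 normoxia arrays with the narrow spread were also the lowest in all 3 scores. Without them no member passed, and limma adjusted p values of members were 0.128 or higher with 2 normoxia arrays left. At an unadjusted p below 0.05, 17 of the 34 members were counted (10 of the sterol arm, 2 regulators and 5 of the fatty acid arm), against 10.4% of all probe sets. SAM was not run on this subset. The median difference was then 0.20 in the sterol arm, 0.15 in the regulators and 0.08 in the fatty acid arm, against 0.19, 0.26 and 0.26 with all arrays. Msmo1 then differed by 0.59, Cyp51 by 0.45, Srebf2 by 0.38 and Elovl1 by 0.67, but Hmgcs1 by 0.20, Fasn by 0.09, Acly by 0.08 and Sc5d by 0.09. Pmvk and Elovl6 differed by -0.56 and -0.46.

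**Figure D3:**
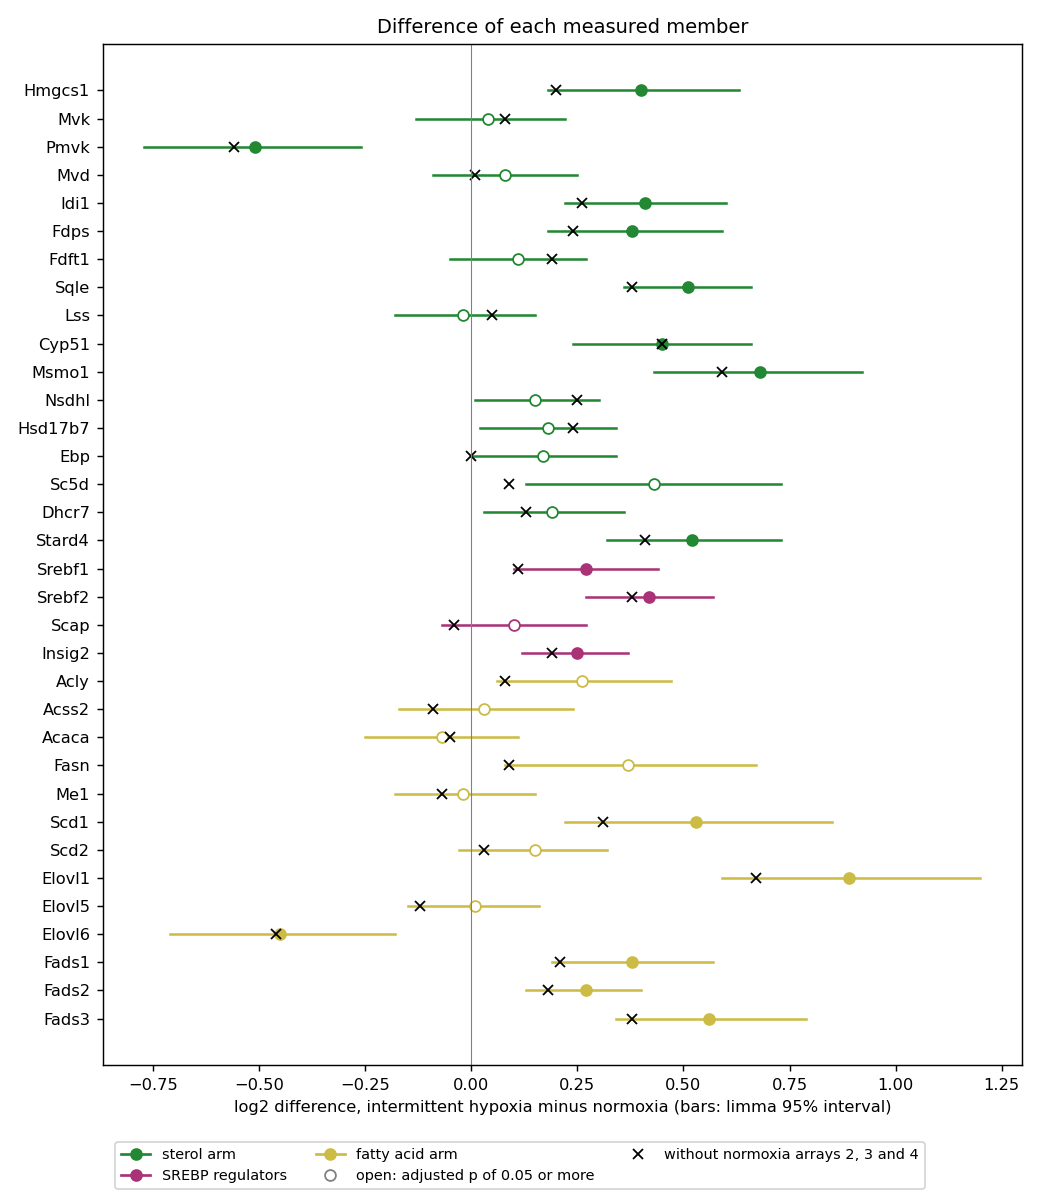
Log2 difference of each of the 34 measured genes, intermittent hypoxia minus normoxia, with bars for the limma 95% interval, filled points for an adjusted p below 0.05 and crosses for the difference without normoxia arrays 2, 3 and 4. The crosses of Cyp51, Pmvk and Elovl6 stand near the points, and those of Fasn, Acly and Sc5d stand near 0.

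Cell types that make or store lipid were followed by marker lists. The counts below stand beside 8.93% of all genes called higher and 3.60% called lower. Alveolar type 2 markers rose at 2 of 11 (Etv5 and Cxcl15), with surfactant genes Sftpc at -0.01 and Sftpb at 0.09, and their score was -0.24 to 0.11 on normoxia arrays and -0.06 to 0.20 on hypoxia arrays. Normoxia arrays 2, 3 and 4 were the lowest in this list too. Adipocyte markers fell at 3 of 12 (Lpl by 0.49, Plin4 by 0.41 and Retn by 0.35) and none rose, and the mean level of the list was 8.24 to 8.80 in normoxia and 7.74 to 8.33 in intermittent hypoxia. Adipoq, the fat-specific hormone gene, differed by -0.88 and did not pass. The adipocyte score was highest on normoxia arrays 3 and 5, at 0.46 and 0.51, of which array 3 had the lowest fatty acid score and array 5 the highest of normoxia. Alveolar macrophage markers rose at 2 of 9 (Mrc1 and Itgax), with a mean level of 7.77 to 7.91 and of 7.74 to 8.42. On hypoxia array 5 their score was -0.27, the lowest of all arrays, while the sterol score of that array was 0.14. Fibroblast and lipofibroblast markers rose at 5 of 12, the matrix genes Col1a1, Col1a2, Col13a1, Col14a1 and Npnt, and their score ran from -0.30 to 0.00 and from 0.00 to 0.29. Of 4 red cell markers 1 fell, and their score was 0.11 to 0.44 on normoxia arrays and -0.37 to -0.11 on hypoxia arrays, without overlap. B cell markers rose at 4 of 7, alveolar type 1 markers at 2 of 8, endothelial markers at 2 of 10 and airway cell markers at 1 of 7. Neutrophil markers fell at 2 of 7 and muscle markers at 1 of 10, with a muscle score of 0.95 on normoxia array 2. The part of these cell types in the lipid genes was not tested.

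**Figure D4:**
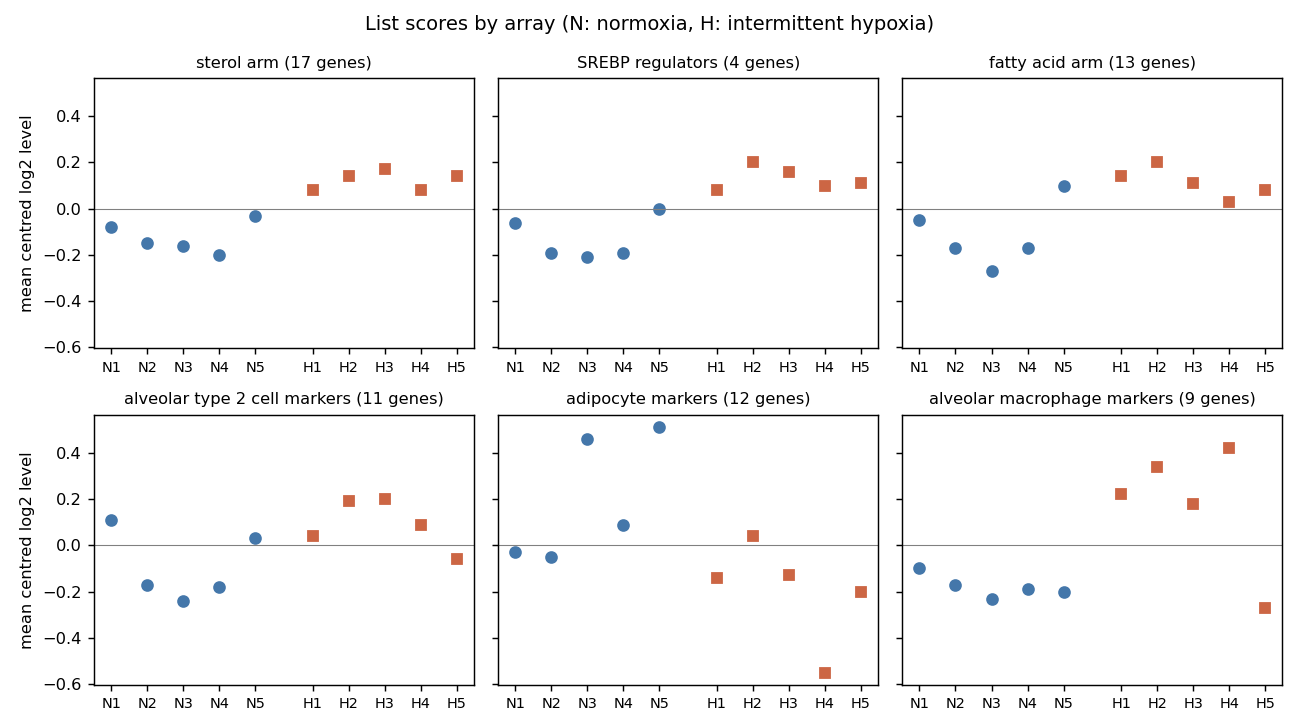
Score of 6 gene lists on each array, the mean of the members' log2 levels after centring each gene over the 10 arrays, with circles for normoxia (N) and squares for intermittent hypoxia (H). The sterol and regulator scores of all hypoxia arrays lie above those of all normoxia arrays, while the other lists overlap.

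Other genes of lipid synthesis and sterol handling were followed on 5 further lists. Of 78 measured genes 11 rose and 5 fell, where 8.93% and 3.60% of all genes did. Of 3 other sterol enzymes none passed limma and 1 had an unadjusted p below 0.05, Lbr, at 0.27 (adjusted p = 0.0550), named after its value was seen, while SAM was not summarised for these lists. Of 18 genes of sterol uptake, transport and efflux 5 rose and 2 fell. Scarb1, the receptor that takes up HDL cholesterol, rose by 0.46 and Apoe, the lipoprotein ligand, by 0.48, and Abca1, the pump that exports cholesterol, fell by 0.29. Stard3 and Osbpl5, which move sterol or lipid between membranes, each rose by 0.32, and Stard5, a sterol carrier, fell by 0.41.

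Of 17 other regulators 1 passed, Mlxipl, which encodes the carbohydrate-responsive activator ChREBP and fell by 0.39 (SE 0.08, limma adjusted p = 0.0138). Among 22 other fatty acid enzymes 4 rose and 1 fell. Hsd17b12, Tecr and Hacd1, which act in the elongation cycle, rose by 0.41, 0.38 and 0.26, and Acsl5, which activates fatty acids, by 0.50 (SE 0.10). Hacd2, Hacd3 and Hacd4 of the same list, named after their values were seen, differed by -0.15, 0.26 and 0.19 and did not pass. Acacb, the mitochondrial carboxylase, fell by 0.35. Of 18 phospholipid and glycerolipid enzymes 2 rose, Pgs1 by 0.33 and Lpcat3 by 0.27, and Lpin1, a phosphatidate phosphatase, fell by 0.35 (SE 0.05, limma adjusted p = 0.00482). Of the 16 called genes of these lists 4 kept their calls without each single array, Mlxipl, Acsl5, Lpin1 and Pgs1. None of the 16 passed limma without normoxia arrays 2, 3 and 4 together (lowest adjusted p 0.150).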

How the data were processed

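The authors deposited log2 probe set levels of 10 arrays, 5 per group. Per the submitters' processing notes the tools were RMA and affy (no version given), and whether all arrays were normalized together is not stated. The differing spread of the arrays leaves this uncertain. All 22626 probe sets were fitted with limma 3.58.1 in R 4.3.3 (lmFit, eBayes). Two-sided p-values were adjusted by Benjamini-Hochberg across the whole table, and the threshold was 0.05. Symbols came from the array's annotation table, with 20380 probe sets carrying 1 symbol, 691 several and 1555 unnamed here. The number of arrays limits the precision. With 1 array for each animal, p-values reflect the spread between animals and between arrays together. All members were named, and of each further pathway list up to 6 genes that passed, smallest p first. Marker genes were named only beside a member result, and the uncalled Sftpc, Sftpb and Adipoq were chosen after their values were seen. The members and lists were chosen with earlier results of these data known. Alternatives were a replicate block, SAM (the authors' software per the design text, here with 100 permutations), quantile normalization, median centring, a level filter, eBayes trend and robust options, arrayWeights, a threshold of 0.10, gene means, and left-out arrays. A stricter SAM estimate was added after the first was seen. The test code was checked on simulated data. One further promoter motif is not reported here.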

Additional observations from a re-analysis of the deposited data

Results flagged for a closer look

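Of 74 groups of 5 arrays examined for an array far from the others, over the 34 genes and 3 scores in each condition, 2 held one, where chance flags about 1 in 20. Acss2 in normoxia was 9.15 on array 5 and at most 8.79 on the others. Pmvk in normoxia was 8.43 on array 4 and at least 8.63 on the others, and without that array Pmvk still fell.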

How the results depend on the processing

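Of 17 called members all kept their direction under every alternative run, 10 kept the call without each single array, and none did without normoxia arrays 2, 3 and 4 together. Direction could not change under SAM, the replicate block, the level filter, the eBayes options or the threshold of 0.10. These use the same difference between group means. Called probe sets numbered 7199 with SAM, 1755 with the replicate block, 4132 with arrayWeights, 4954 at an adjusted p below 0.10, 16 without normoxia arrays 2, 3 and 4 and 1003 to 4800 without single arrays, against 2699. The SAM count depends on how false calls are estimated. It was 7199 with their median over permutations and an estimated share of unchanged genes of 0.472, and 4609 with their mean, 4085 with that share at 1 and 1801 with both changes. False calls at the first threshold ran from 268 to 6473 over permutations. Sterol arm calls numbered 13 with SAM, 7 with the stricter SAM estimate, 6 to 10 without single arrays and 0 without normoxia arrays 2 to 4, against 8. Regulator calls numbered 1 with the replicate block, 1 with quantile normalization, 1 to 3 without single arrays and 0 without normoxia arrays 2 to 4, against 3. Fatty acid calls numbered 3 to 8 without single arrays and 0 without normoxia arrays 2 to 4, against 6. The stricter SAM estimate, added after the data were seen, lost Hmgcs1, Srebf1, Scd1 and Elovl6. Quantile normalization lost Hmgcs1, Srebf1, Insig2, Scd1 and Fads1, and moved the share of called probe sets that were higher from 71.2% to 59.1%. Signs turned only in genes that had not passed. With quantile normalization Scap was -0.01, Acss2 -0.03, Scd2 -0.00 and Elovl5 -0.13, and with centred arrays Elovl5 was -0.00. With the mean of probe sets Fdft1 was -0.06, Lss 0.02, Acss2 -0.04 and Me1 0.08. Without normoxia arrays 2 to 4 Lss was 0.05, Scap -0.04, Acss2 -0.09 and Elovl5 -0.12. Without single arrays Lss ran from -0.06 to 0.02, Elovl5 from -0.03 to 0.04, Me1 from -0.05 to 0.04 and Acss2 from -0.00 to 0.11. The cause of these changes was not tested. Between arrays of the same replicate number, correlations of deviations ran from -0.24 to 0.22. These few values cannot decide whether the labels' numbers pair the animals. The replicate block also lost Srebf1, Insig2 and Elovl6. The mean of probe sets lost Fdps, Cyp51 and Insig2 and gives no count of probe sets.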
